A study of Homo sapiens with 12 samples.

Results

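Cells keep transposons such as LINE-1 (L1) silent with methylated DNA and with histone H3 methylated at lysine 9 (H3K9), and 10 genes of that machinery are described here. They are DNMT1, UHRF1, DNMT3A, DNMT3B, TET3, TRIM28, SETDB1, MPHOSPH8, TASOR and MORC2, chosen by name from the 36072 genes with a count in any library. All 10 passed the filter on low counts, which kept 17849 genes for testing. Because the choice also rested on the low UHRF1 level in the NVR-labelled libraries, UHRF1 is described there without a test and the other 9 members are counted.

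The libraries came from NCI-H520 (H520), an established human lung squamous cell carcinoma line. L1-FGGY is a chimeric transcript that starts at an L1 element within FGGY and runs into that gene, and the study made lines that stably carry a lentiviral OV-L1-FGGY construct or the empty vector OV-CTRL. There were 12 RNA-seq libraries in 4 groups of 3: OV-L1-FGGY cells with DMSO (L1-FGGY DMSO), OV-L1-FGGY cells with 10 µM ML355, an inhibitor of 12-lipoxygenase (L1-FGGY ML355), libraries labelled as L1-FGGY cells with 450 µM NVR, a reverse transcriptase inhibitor meant to block L1 (labelled NVR), and control cells with DMSO (control DMSO). Medium with drug, or with 0.2% DMSO, was put on 5 h after seeding, and the length of treatment was not given. Nothing said whether the 3 libraries of a group were separate cultures or whether a line was 1 clone, so p-values measure the spread between these libraries only.

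The libraries held 16242082 to 27004768 counts. FGGY checked the labels: it had 4782, 5206 and 6196 counts in L1-FGGY DMSO and 7346, 6290 and 5080 in L1-FGGY ML355, against 91, 87 and 78 in control DMSO and 82, 103 and 88 in the NVR-labelled libraries. The NVR label says L1-FGGY cells, but FGGY there was at the control level, and the first principal component (78.9% of the variance) also set those libraries with the control ones. They are therefore given against both DMSO groups, and against L1-FGGY DMSO the drug and the cell line cannot be told apart. The L1-FGGY and control libraries also differed in lineage markers. Of 10 squamous markers, 2 to 4 reached 1 CPM (counts scaled to a common library size) in a group, KRT6A and DSG3 had no counts anywhere, and SOX2 was at 0 in both L1-FGGY groups but averaged 16.02 CPM in control DMSO. The summed squamous markers ran from 1111 to 1144 CPM in L1-FGGY DMSO, from 3425 to 5183 in L1-FGGY ML355, from 22.8 to 28.2 in control DMSO and from 11.6 to 20.5 in the NVR-labelled libraries, nearly all of it KRT17 and TRIM29 in the L1-FGGY groups. Fibroblast markers summed to 341 to 359, 112 to 122, 20.2 to 25.5 and 19.4 to 22.3 CPM in the same order, and leukocyte markers to at most 3.81. Neuroendocrine markers summed to 5.20 to 7.57 CPM in control DMSO and 16.4 to 23.7 in the NVR-labelled libraries. For lung adenocarcinoma and alveolar markers these sums were 4.58 to 5.43 and 7.59 to 10.6 CPM. Both lists summed to less than 1 CPM in each L1-FGGY library. The part of all these lineage differences in those of the members was not tested.

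In outline, DNMT3A and DNMT3B place new methyl groups on CpG sites, UHRF1 recognises half-methylated CpGs behind the replication fork and brings in DNMT1 to copy the mark, and TET3 oxidises methylcytosine as a step toward its removal. TRIM28 (KAP1) is drawn to transposons by KRAB zinc finger proteins and recruits SETDB1, which trimethylates H3K9. The HUSH complex is built from TASOR, MPHOSPH8 and periphilin (PPHLN1), in which MPHOSPH8 reads methylated H3K9, and it silences L1 elements with help from SETDB1 and the ATPase MORC2.

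For UHRF1 and DNMT1, the pair that maintains methylation, DNA around start sites is shown. The windows run from 250 bases before to 50 bases after a RefSeq start site in GRCh38.p14, and windows were matched for 9 of the 10 members, all but TRIM28. Capitals mark a word of the E2F motif, searched on both strands as TTTCCCGC, TTTCGCGC, TTTGCCGC and TTTGGCGC. E2F factors are textbook drivers of the genes of DNA synthesis. A word was found in 3 of the members' 20 windows, the 3 printed below from UHRF1 and DNMT1, and in 3.3% of all 34943 windows of this length. The windows do not cover the members alike, as 6 of the 20 are from DNMT3A. The only DNMT3B window (chr20:32779602-32779901) lies inside the gene, past its first base at 32762385. The 3 printed windows also lie inside their genes. The first base is at 4903080 for UHRF1 and, on the minus strand, at 10231286 for DNMT1. A word near the first base of UHRF1, DNMT1 or DNMT3B, or near any start of TRIM28, was therefore not looked for. The search does not set UHRF1 and DNMT1 apart from DNMT3B and TRIM28. The match is a description of letters and not of binding, and a part of E2F factors in the levels of these genes was not tested.
UHRF1, first window, chr19:4909251-4909550, plus strand: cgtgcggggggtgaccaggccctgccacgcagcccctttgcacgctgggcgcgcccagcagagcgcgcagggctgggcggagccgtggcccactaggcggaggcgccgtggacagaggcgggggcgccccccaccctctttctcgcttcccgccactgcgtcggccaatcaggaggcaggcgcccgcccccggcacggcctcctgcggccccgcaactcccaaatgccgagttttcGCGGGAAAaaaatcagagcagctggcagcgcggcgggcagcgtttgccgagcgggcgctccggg
UHRF1, second window, chr19:4909894-4910193, plus strand: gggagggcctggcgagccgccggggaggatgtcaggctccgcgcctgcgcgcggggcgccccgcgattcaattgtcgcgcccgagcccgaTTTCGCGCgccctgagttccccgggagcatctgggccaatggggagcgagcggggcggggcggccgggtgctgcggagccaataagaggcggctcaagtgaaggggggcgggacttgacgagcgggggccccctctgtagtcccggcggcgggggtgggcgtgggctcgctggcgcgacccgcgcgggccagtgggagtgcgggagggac
DNMT1, only window, chr19:10194904-10195203, minus strand: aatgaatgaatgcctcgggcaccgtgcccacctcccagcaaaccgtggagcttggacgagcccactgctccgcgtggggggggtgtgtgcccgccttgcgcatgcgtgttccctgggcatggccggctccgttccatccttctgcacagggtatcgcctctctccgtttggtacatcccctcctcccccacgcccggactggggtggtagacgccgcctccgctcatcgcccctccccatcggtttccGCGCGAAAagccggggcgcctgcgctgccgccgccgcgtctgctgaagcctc
Counting the start base as 1 with no base 0, the words begin at base -14 and base -160 in the UHRF1 windows and at base -2 in the DNMT1 window. These windows hold 36, 40 and 30 CpG sites, against a median of 14 over all windows, so they are rich in CpG.

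SETDB1 rose and UHRF1 and TASOR fell with ML355, DNMT1, TET3 and SETDB1 were lower in the NVR-labelled libraries than in control DMSO, and 5 of the 10 members differed between the DMSO groups. Calls are an adjusted p under 0.01 in edgeR's quasi-likelihood test, with Benjamini-Hochberg adjustment over all genes tested. ML355 against L1-FGGY DMSO gave 1 member higher (SETDB1) and 2 lower (UHRF1, TASOR) of 10, where 44.8% of all genes tested were called, 21.3% higher and 23.5% lower. The NVR-labelled libraries against control DMSO gave 0 higher and 3 lower (DNMT1, TET3, SETDB1) of 9, against 29.8% of all genes, 14.5% higher and 15.3% lower. DESeq2 and limma voom also called 0 of the 9 higher there, and 1 was higher at an unadjusted p under 0.05 in edgeR. Against L1-FGGY DMSO the same libraries gave 2 higher and 5 lower of 9. The higher were TRIM28 (log2 1.94) and DNMT3A (0.92). The lower were TET3 (-2.51), TASOR (-1.73), SETDB1 (-1.32), DNMT1 (-1.12) and MPHOSPH8 (-0.67). DNMT3B (-0.52) and MORC2 (0.23) did not pass. Of all genes 73.6% were called there, 38.2% higher and 35.4% lower. L1-FGGY DMSO against control DMSO gave 3 higher and 2 lower of 10, where 68.7% of all genes were called, 32.5% higher and 36.2% lower. The NVR-labelled libraries against L1-FGGY ML355 gave 2 higher and 5 lower of 9, where 74.4% of all genes were called, 39.4% higher and 35.0% lower. The shares called among the members thus lay near or below those of all genes. Comparisons with the same DMSO group share those libraries and are not independent of each other.

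**Figure D1:**
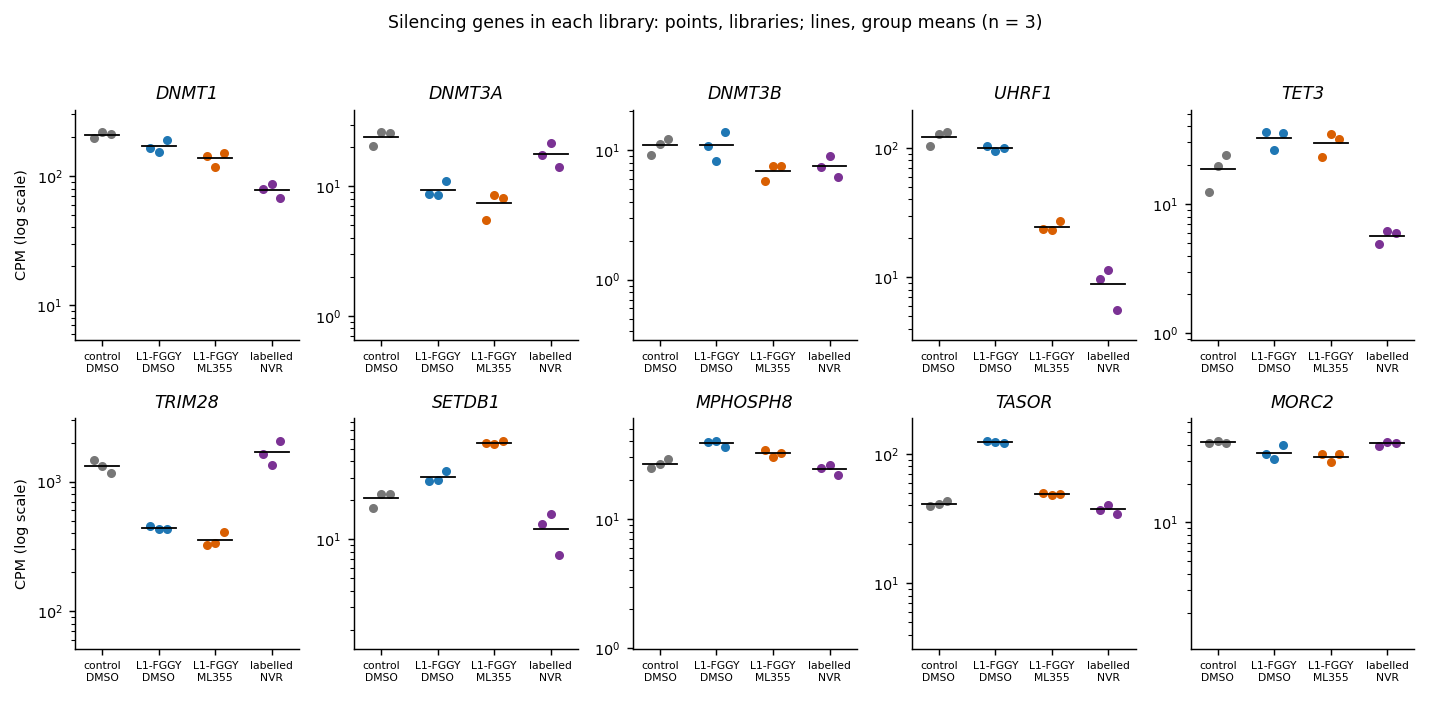
CPM of the 10 members (log scale, each panel with its own range) in the 4 groups, with a point for each library and a line for the mean of 3 libraries. UHRF1 lies near 100 CPM in both DMSO groups, below 28 in all ML355 libraries and below 12 in all libraries labelled NVR, while TRIM28 and TASOR part the L1-FGGY DMSO libraries from control.

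UHRF1 (chr19:4903080-4962154, hg38, GENCODE release 44, as are the other positions of genes) was lower with ML355 in all 3 libraries. It measured 103, 95.4 and 99.97 CPM in L1-FGGY DMSO and 23.7, 23.0 and 27.2 CPM in L1-FGGY ML355. The groups did not overlap, and the fall was 4.03-fold (log2 fold change -2.01 ± 0.18 (SE), adjusted p = 1.26e-07, edgeR). In these bulk libraries, fewer cells that express a gene and less RNA per cell cannot be told apart. Control DMSO libraries had 104, 127 and 132 CPM, and the NVR-labelled libraries had 9.71, 11.3 and 5.596 CPM. As a description, UHRF1 was 13.5-fold lower in the NVR-labelled libraries than in control DMSO (log2 -3.76), the 23rd lowest log2 fold change of the 17849, and 11.1-fold lower than in L1-FGGY DMSO (log2 -3.47). The third of these libraries was the lowest, and without it the log2 difference from control DMSO was -3.51. Between the DMSO groups UHRF1 differed by -0.29 ± 0.17 (SE) on the log2 scale, which did not pass the test (adjusted p = 0.133, edgeR).

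DNMT1 (chr19:10133342-10231286), the maintenance methyltransferase, moved less. It measured 195, 217 and 212 CPM in control DMSO and 78.8, 87.0 and 68.1 CPM in the NVR-labelled libraries. All 3 of the latter lay below every other library, and the fall was 2.67-fold (log2 -1.42 ± 0.13 (SE), adjusted p = 4.50e-07, edgeR). With ML355 it was 143, 118 and 149 CPM, against 166, 153 and 189.6 in L1-FGGY DMSO. That difference of -0.31 ± 0.12 (SE) on the log2 scale did not pass the test (adjusted p = 0.0432, edgeR), although the ranges did not overlap. Against L1-FGGY DMSO, the NVR-labelled libraries were 2.17-fold lower (adjusted p = 4.78e-07, edgeR). DNMT1 shares 83 exon bases with S1PR2 on the same strand, which had only 42 to 131 counts in a library.

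S phase genes were lower in both drug groups as well. Of 38 S phase genes outside the pathway lists, 37 were called lower in the NVR-labelled libraries than in control DMSO (beside 15.3% of all genes), with a median log2 fold change of -1.71, and with ML355 21 were called lower (beside 23.5% of all genes) and 3 higher (beside 21.3%), with a median of -0.47. Their summed level was 3603 ± 106 CPM (SD, n = 3) in L1-FGGY DMSO, 2704 ± 78.0 in L1-FGGY ML355, 2108 ± 32.1 in control DMSO and 616 ± 3.22 in the NVR-labelled libraries. With ML355 the log2 fold change of UHRF1 was below that of each of the 38, the nearest being RRM2 (-1.56). In the NVR-labelled libraries, where the choice of members rested on UHRF1, the lowest of the 38 was CLSPN (-2.87). The log2 fold change of DNMT1 was above that of 25 of the 38 with ML355 and of 28 in the NVR-labelled libraries. Per 1000 CPM of S phase genes, UHRF1 had 27.6 ± 0.250 CPM in L1-FGGY DMSO and 9.11 ± 0.907 with ML355, and it had 57.4 ± 7.68 in control DMSO and 14.4 ± 4.73 in the NVR-labelled libraries. The ranges of UHRF1 on that scale are a description, and for the NVR-labelled libraries the choice of members used its level. DNMT1 on that scale was 47.0 ± 4.88, 50.5 ± 5.70, 98.8 ± 6.87 and 127 ± 14.9 in the same order of groups. The part of cycling cells in these results was not tested.

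**Figure D2:**
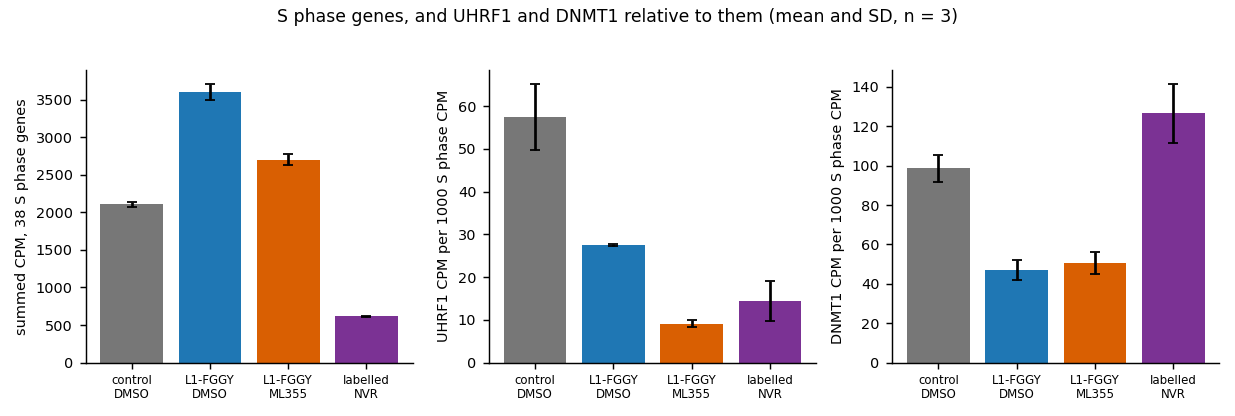
Summed CPM of 38 S phase genes (left), and UHRF1 (centre) and DNMT1 (right) as CPM per 1000 CPM of those genes, with bars for the mean and error bars for the SD of 3 libraries. The summed S phase genes are lowest in the NVR-labelled libraries, and on the relative scale the bars of UHRF1 are lower in the drug groups than in the DMSO groups, where the NVR-labelled level of UHRF1 was used to choose the members.

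DNMT3A (chr2:25227855-25342590) and DNMT3B (chr20:32762385-32809359), the de novo methyltransferases, were low in all groups, and DNMT3A differed between the DMSO groups. DNMT3A measured 8.66, 8.62 and 10.9 CPM in L1-FGGY DMSO, 5.52, 8.60 and 8.14 in L1-FGGY ML355, 20.4, 26.1 and 25.9 in control DMSO and 17.5, 21.5 and 14.2 in the NVR-labelled libraries. Every L1-FGGY library lay below every library of the other 2 groups. L1-FGGY DMSO was 2.56-fold below control DMSO (log2 -1.36 ± 0.19 (SE), adjusted p = 6.87e-06, edgeR), and the NVR-labelled libraries were 1.89-fold above L1-FGGY DMSO (adjusted p = 3.36e-04, edgeR), a call lost with library size alone as the scaling (adjusted p = 0.0106). DNMT3A did not pass the test with ML355 (log2 -0.34, adjusted p = 0.15, edgeR) or in the NVR-labelled libraries against control DMSO (log2 -0.44, adjusted p = 0.0612, edgeR).

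DNMT3B measured 10.7, 8.26 and 13.7 CPM in L1-FGGY DMSO and 5.77, 7.52 and 7.51 CPM with ML355. These ranges were apart, yet the log2 difference of -0.65 ± 0.21 (SE) missed the threshold (adjusted p = 0.0126, edgeR), and it passed with DESeq2 (adjusted p = 0.00765), with no filter on low counts (0.00312), in a fit of the 2 groups alone (0.00919) and without L1-FGGY DMSO replicate 2 (0.00396). Control DMSO had 9.25, 11.2 and 12.3 CPM and the NVR-labelled libraries 7.36, 9.03 and 6.25 CPM, a log2 difference of -0.53 ± 0.20 (SE) that did not pass (adjusted p = 0.0440, edgeR). Between the DMSO groups the log2 difference was -0.0027, with a sign that turned with the scaling and with the libraries used. Per length, the ratio of DNMT3B to DNMT3A was 2.30 ± 0.334 (SD, n = 3) in L1-FGGY DMSO, 1.90 ± 0.176 in L1-FGGY ML355, 0.907 ± 0.0439 in control DMSO and 0.856 ± 0.0229 in the NVR-labelled libraries. Per length, the higher of the 2 was thus DNMT3B in each L1-FGGY library and DNMT3A in each of the other 6. That order depends on exon lengths of 6876 bases for DNMT3B and 13781 for DNMT3A. By CPM, neither gene was the higher in all L1-FGGY libraries, while DNMT3A was the higher in each of the other 6.

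TET3 (chr2:73984910-74108176), the methylcytosine dioxygenase, was lowest in the NVR-labelled libraries. It measured 12.4, 19.7 and 23.7 CPM in control DMSO and 4.95, 6.15 and 5.93 CPM in the NVR-labelled libraries. The groups were apart, with a 3.27-fold fall (log2 -1.71 ± 0.23 (SE), adjusted p = 2.39e-05, edgeR). In L1-FGGY DMSO it was 35.7, 26.1 and 35.3 CPM and with ML355 22.9, 34.6 and 31.7 CPM. Those ranges overlapped, and TET3 did not pass the test there (log2 -0.12, adjusted p = 0.640, edgeR). L1-FGGY DMSO was 1.74-fold above control DMSO (log2 0.80 ± 0.21 (SE), adjusted p = 0.00246, edgeR), which did not pass without L1-FGGY DMSO replicate 1 (adjusted p = 0.0129) or replicate 3 (0.0120). The NVR-labelled libraries were 5.69-fold below L1-FGGY DMSO (adjusted p = 3.61e-08, edgeR).

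TRIM28 (chr19:58544064-58550722) was by far the most abundant member and parted the lines. It measured 455, 428 and 431 CPM in L1-FGGY DMSO, 323, 336 and 406 in L1-FGGY ML355, 1477, 1313 and 1164 in control DMSO and 1639.5, 1351 and 2051 in the NVR-labelled libraries. The highest L1-FGGY library thus lay far below the lowest of the other 6. L1-FGGY DMSO was 3.01-fold below control DMSO (log2 -1.59 ± 0.16 (SE), adjusted p = 1.04e-07, edgeR). With ML355 the log2 difference of -0.30 ± 0.15 (SE) did not pass (adjusted p = 0.0996, edgeR), though it did with library size alone as the scaling (adjusted p = 0.00531). In the NVR-labelled libraries TRIM28 differed from control DMSO by 0.35 ± 0.15 (SE) on the log2 scale, which did not pass (adjusted p = 0.0719, edgeR), except without NVR replicate 2 (0.00864). Its 15 nearest tested genes had a median log2 difference of -1.29 between the DMSO groups, with a range from -2.95 to 0.38. The median absolute log2 difference of all genes in that comparison was 1.17.

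SETDB1 (chr1:150926263-150964744), the H3K9 methyltransferase that TRIM28 recruits, moved in opposite directions in the drug groups. It measured 28.4, 28.6 and 33.9 CPM in L1-FGGY DMSO and 55.5, 55.0 and 57.3 CPM with ML355. The ML355 libraries were the highest of all 12, and the rise was 1.84-fold (log2 0.88 ± 0.19 (SE), adjusted p = 7.39e-04, edgeR). Control DMSO had 17.5, 22.6 and 22.6 CPM and the NVR-labelled libraries 13.1, 15.6 and 7.52 CPM, a 1.72-fold fall (log2 -0.78 ± 0.19 (SE), adjusted p = 0.00402, edgeR). That call was lost without control DMSO replicate 2 (adjusted p = 0.0199), control DMSO replicate 3 (0.0172) or NVR replicate 1 (0.0112), and in a fit of these 2 groups alone (0.031). Leaving out 1 library at a time gave log2 differences from -1.01 to -0.53. SETDB1 shares 948 exon bases (12.9% of its exon length) with CERS2 on the opposite strand, whose log2 difference was 0.52 with ML355 (adjusted p = 0.117, edgeR) and -0.87 in the NVR-labelled libraries against control DMSO (adjusted p = 0.0182, edgeR). Whether counting used strand was not stated, so reads of the shared bases cannot be told apart. Per length, SETDB1 was 0.0405 ± 0.00495 (SD, n = 3) of TRIM28 in L1-FGGY DMSO, 0.0928 ± 0.00929 with ML355, 0.00943 ± 0.00225 in control DMSO and 0.00451 ± 0.00230 in the NVR-labelled libraries.

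TASOR (chr3:56620132-56683265), the scaffold of HUSH, was high in L1-FGGY DMSO alone. It measured 125, 125 and 122 CPM there, 49.5, 47.9 and 49.1 with ML355, 39.5, 40.9 and 43.7 in control DMSO and 37.2, 40.2 and 34.6 in the NVR-labelled libraries. The spread within each group was small beside these steps. L1-FGGY DMSO was 3.003-fold above control DMSO (log2 1.59 ± 0.098 (SE), adjusted p = 4.12e-10, edgeR), and ML355 was 2.54-fold below L1-FGGY DMSO (log2 -1.35 ± 0.098 (SE), adjusted p = 1.53e-08, edgeR). In the NVR-labelled libraries it differed from control DMSO by -0.15 ± 0.097 (SE) on the log2 scale, which did not pass (adjusted p = 0.238, edgeR), with overlapping ranges. TASOR shares 306 exon bases with CCDC66 on the opposite strand. CCDC66 also differed between the DMSO groups (log2 1.73) but with ML355 had a log2 difference of 0.22 (adjusted p = 0.189, edgeR). The 20 tested genes nearest TASOR had a median log2 difference of 1.37 between the DMSO groups (range -6.55 to 6.17) and 0.16 with ML355 (range -3.34 to 3.74).

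PPHLN1, the periphilin subunit of HUSH and the pathway gene with the smallest adjusted p of its list with ML355, was also highest in L1-FGGY DMSO. It measured 112, 98.2 and 103 CPM in L1-FGGY DMSO, 42.4, 37.6 and 35.5 with ML355, 46.1, 48.3 and 51.8 in control DMSO and 46.3, 42.7 and 38.3 in the NVR-labelled libraries. It was lower with ML355 (log2 -1.44 ± 0.11 (SE), adjusted p = 3.48e-08, edgeR) and higher in L1-FGGY DMSO than in control DMSO (log2 1.10 ± 0.11 (SE), adjusted p = 1.62e-07, edgeR).

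MPHOSPH8 (chr13:19633659-19673441), the H3K9 methylation reader of HUSH, changed less. It measured 39.6, 39.9 and 36.3 CPM in L1-FGGY DMSO, 33.9, 29.9 and 32.4 with ML355, 24.6, 26.6 and 28.8 in control DMSO and 24.8, 26.1 and 21.8 in the NVR-labelled libraries. L1-FGGY DMSO was 1.45-fold above control DMSO (log2 0.53 ± 0.11 (SE), adjusted p = 4.31e-04, edgeR), where its 12 nearest tested genes had a median of -1.57 (range -3.07 to 0.52). With ML355 the log2 difference of -0.27 ± 0.11 (SE) did not pass (adjusted p = 0.0538, edgeR), nor did that of -0.14 ± 0.11 (SE) between the NVR-labelled libraries and control DMSO (adjusted p = 0.347, edgeR). The NVR-labelled libraries were below L1-FGGY DMSO (log2 -0.67 ± 0.11 (SE), adjusted p = 4.64e-05, edgeR). The ratio of MPHOSPH8 to TASOR per length was 0.624 ± 0.0250 (SD, n = 3) in L1-FGGY DMSO, and 1.32 ± 0.0604, 1.29 ± 0.0400 and 1.30 ± 0.0376 in L1-FGGY ML355, control DMSO and the NVR-labelled libraries. Per length, TASOR exceeded MPHOSPH8 only in L1-FGGY DMSO, in each of its 3 libraries. That order depends on exon lengths of 9853 bases for TASOR and 4909 for MPHOSPH8. By CPM, TASOR was above MPHOSPH8 in every library.

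MORC2 (chr22:30925130-30968774), the ATPase that works with HUSH, varied least. It measured 33.7, 30.9 and 39.4 CPM in L1-FGGY DMSO, 33.8, 29.4 and 33.6 with ML355, 40.9, 42.5 and 41.2 in control DMSO and 39.3, 42.1 and 41.0 in the NVR-labelled libraries. No comparison passed the test in the fit used here, with log2 differences of -0.10 with ML355, -0.025 and 0.23 in the NVR-labelled libraries against control DMSO and L1-FGGY DMSO, and -0.26 between the DMSO groups. The sign against control DMSO turned with DESeq2's size factors, that against L1-FGGY DMSO turned with library size alone, and DESeq2 and a filter of at least 10 counts in every library called MORC2 in 3 comparisons. By DESeq2 it was lower in L1-FGGY DMSO than in control DMSO (adjusted p = 0.00936) and higher in the NVR-labelled libraries than in L1-FGGY DMSO (0.00621) and L1-FGGY ML355 (4.39e-04), and by that filter the adjusted p-values were 0.00641, 0.00556 and 6.23e-04. Limma voom (0.00800) and DESeq2's size factors in edgeR (0.00302) also called it against L1-FGGY ML355.

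**Figure D3:**
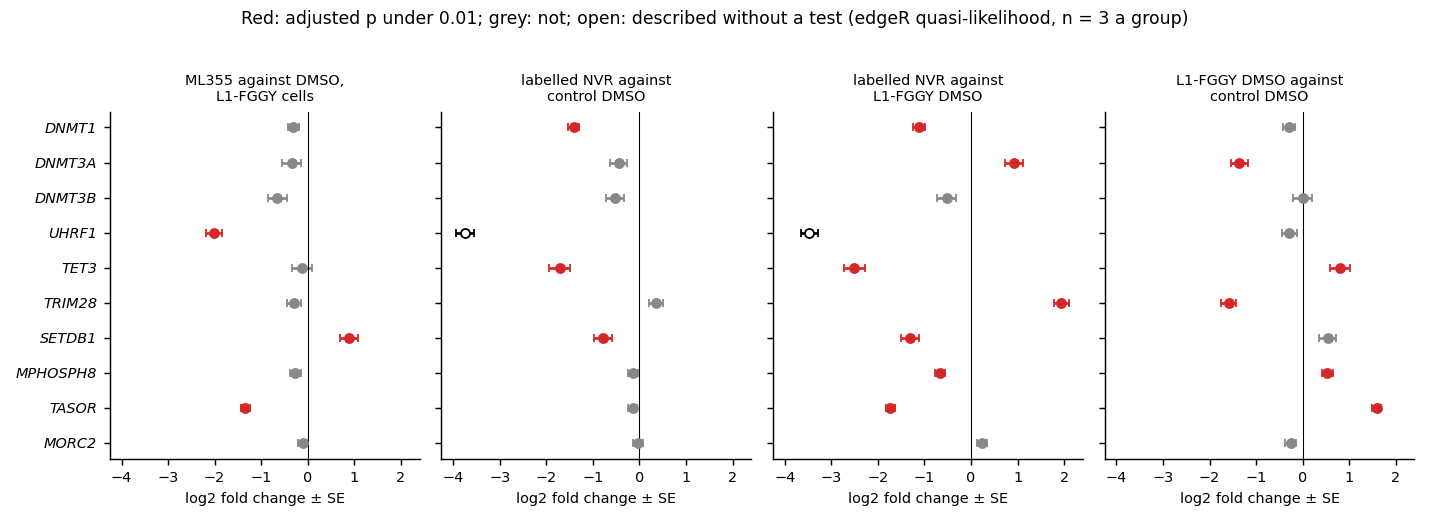
Log2 fold change of each member in 4 comparisons, with bars for the SE (edgeR, 3 libraries a group). Red points passed an adjusted p of 0.01, grey points did not, and open points mark UHRF1 where it is described without a test. SETDB1 is to the right of 0 with ML355 and to the left in the NVR-labelled libraries. TASOR is to the left of 0 with ML355. It is also to the left in the NVR-labelled libraries against L1-FGGY DMSO, where drug and cell line cannot be told apart. Against control DMSO TASOR did not pass in the NVR-labelled libraries.

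The members' order by level was set on RPKM, CPM per kilobase of exon. Exon length covers every annotated exon of a gene, and the order between genes depends on it. TRIM28 was first in every group, from 82.4 ± 10.4 RPKM (SD, n = 3) in L1-FGGY ML355 to 390.3 ± 81.7 in the NVR-labelled libraries. UHRF1 came second in both DMSO groups, with 19.3 ± 0.700 RPKM in L1-FGGY DMSO and 23.5 ± 2.88 in control DMSO, and sixth in both drug groups, with 4.78 ± 0.434 in L1-FGGY ML355 and 1.72 ± 0.571 in the NVR-labelled libraries. DNMT1 then held the second place, with 8.89 ± 1.10 and 5.07 ± 0.616 RPKM. In L1-FGGY ML355 the levels of TASOR (4.96 ± 0.0862) and UHRF1 stood within their spread of each other, as did those of DNMT1 and MPHOSPH8 (4.94 ± 0.455) and of TASOR (3.79 ± 0.285) and MORC2 (3.77 ± 0.131) in the NVR-labelled libraries. There UHRF1 also stood within its spread of SETDB1 (1.64 ± 0.561) and DNMT3A (1.29 ± 0.264), so its sixth place is not set apart. The lowest member was DNMT3A in both L1-FGGY groups, at 0.683 ± 0.0960 and 0.539 ± 0.121 RPKM, and TET3 in control DMSO and in the NVR-labelled libraries, at 1.44 ± 0.444 and 0.438 ± 0.0490. In control DMSO that place was within the spread of DNMT3B (1.59 ± 0.223) and DNMT3A (1.75 ± 0.234). The UHRF1 to DNMT1 ratio per length was 1.76 ± 0.162 in L1-FGGY DMSO and 1.73 ± 0.131 in control DMSO. It was 0.541 ± 0.0457 with ML355 and 0.334 ± 0.0772 in the NVR-labelled libraries. Per length, UHRF1 thus led in all DMSO libraries and DNMT1 in all drug libraries. That switch depends on exon lengths of 5145 bases for UHRF1 and 15379 for DNMT1. By CPM, DNMT1 was above UHRF1 in every library. For the NVR-labelled libraries, the choice of members used the UHRF1 level.

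The effect of ML355 against L1-FGGY DMSO was set against that of NVR against control DMSO, where the second effect minus the first also compares the DMSO groups. Of 9 members 1 differed upward and 3 downward, and 34.1% of all genes were called, 16.8% upward and 17.3% downward. TASOR differed by 1.20 ± 0.14 (SE) (adjusted p = 3.84e-06, edgeR), having fallen with ML355 only. SETDB1 differed by -1.66 ± 0.27 (SE) (adjusted p = 1.06e-04), TET3 by -1.59 ± 0.31 (SE) (adjusted p = 5.19e-04) and DNMT1 by -1.11 ± 0.18 (SE) (adjusted p = 9.76e-05), all by edgeR and all lower in the NVR-labelled libraries. UHRF1, with no test, differed by -1.74. TRIM28 differed by 0.65 ± 0.21 (SE), which did not pass (adjusted p = 0.0199, edgeR) but did with DESeq2 (0.00541), library size alone (0.00713), no filter on low counts (0.00169), and without control DMSO replicate 1 (0.00944) or NVR replicate 2 (0.00185). Set directly against L1-FGGY ML355, the NVR-labelled libraries had higher TRIM28 (log2 2.24) and DNMT3A (1.26) and lower TET3 (-2.38), SETDB1 (-2.20), DNMT1 (-0.81), MPHOSPH8 (-0.40) and TASOR (-0.39). The calls of MPHOSPH8 and TASOR were lost with each other filter on low counts (adjusted p = 0.0534 and 0.0446 with no filter), and in a fit of the 2 groups alone (0.0304 and 0.0243), that of MPHOSPH8 also without ML355 replicate 1 or 3, and both without NVR replicate 1 or 3.

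The wider pathway was read from 7 lists with 66 genes, of which 64 were tested. With ML355 13 were called higher, 19 lower and 32 not beside the 44.8% of all genes, with a median log2 fold change of -0.21, where that of all genes was 0. In the NVR-labelled libraries against control DMSO 1 was called higher (ATF7IP2, a SETDB1 partner), 31 lower and 32 not, beside the 29.8% of all genes, with a median of -0.41, where that of all genes was again 0. A fit of these 2 groups alone called 21 of them, beside 4173 of all 16536 genes in that fit. In the 6 other lists no gene was called higher there by edgeR, DESeq2 or limma voom, and 2 genes were higher at an unadjusted p under 0.05 in edgeR. Without the 4 genes that are also in the S phase list, 27 of 60 were called lower, beside 15.3% of all genes. LIG1 and CHAF1A, whose roles at replication are given below, are not in that list and remain among the 60. Removing the 4 thus does not remove all replication genes. L1-FGGY DMSO against control DMSO had 36 higher and 15 lower of the 64, beside 32.5% of all genes higher and 36.2% lower. The NVR-labelled libraries against L1-FGGY DMSO had 12 higher and 46 lower, beside 38.2% and 35.4% of all genes. The lists below are small, and their counts are read against the same shares of all genes, 21.3% higher and 23.5% lower with ML355 and 14.5% higher and 15.3% lower in the NVR-labelled libraries against control DMSO.

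Among the 9 tested partners of maintenance methylation, 6 were called lower in the NVR-labelled libraries than in control DMSO (66.7%, beside 15.3% of all genes) and none was called higher, and with ML355 3 were called lower and 2 higher (55.6% in all, beside 44.8%). HELLS, a chromatin remodeller needed for methylation, measured 52.5, 60.1 and 55.5 CPM in L1-FGGY DMSO and 23.9, 20.3 and 23.0 with ML355 (log2 -1.32 ± 0.12 (SE), adjusted p = 2.37e-07, edgeR). In control DMSO it had 40.6, 48.0 and 48.3 CPM and in the NVR-labelled libraries 13.0, 12.5 and 10.3 (log2 -1.93 ± 0.13 (SE), adjusted p = 2.18e-08, edgeR). HELLS thus fell in both. PCNA, the replication clamp, fell with ML355 (log2 -0.79, adjusted p = 7.28e-06, edgeR). It was also lower in the NVR-labelled libraries than in control DMSO (log2 -0.72, adjusted p = 4.05e-05, edgeR). LIG1, the ligase that joins Okazaki fragments, fell in the NVR-labelled libraries (log2 -1.62, adjusted p = 1.00e-08, edgeR). With ML355 LIG1 did not pass (log2 0.017, adjusted p = 0.908, edgeR).

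Of 6 demethylation and repair genes, 3 were called lower and 1 higher with ML355 (66.7%, beside 44.8% of all genes) and none in the NVR-labelled libraries against control DMSO by edgeR, DESeq2 or limma voom, where 3 were lower and 0 higher at an unadjusted p under 0.05 in edgeR. NEIL1 and SMUG1, DNA glycosylases, were lower with ML355, at log2 -2.91 (adjusted p = 1.62e-06, edgeR) and -1.04 (adjusted p = 1.43e-05, edgeR). NEIL1 was near 2 CPM in L1-FGGY DMSO, so that change rests on few counts. TET1 and NEIL1, the first of this list in the NVR-labelled libraries, did not pass there (log2 -1.14, adjusted p = 0.0391, and log2 -0.41, adjusted p = 0.0714, edgeR).

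Of 7 readers of methylated CpG, ML355 had 3 lower and 1 higher (57.1%, beside 44.8% of all genes), and the NVR-labelled libraries 2 lower than control DMSO (28.6%, near the 29.8% of all genes). ZBTB38, a zinc finger reader, measured 216, 176 and 219 CPM in L1-FGGY DMSO and 50.3, 56.1 and 46.7 with ML355 (log2 -2.00 ± 0.19 (SE), adjusted p = 2.85e-07, edgeR), with no overlap. It was also lower in the NVR-labelled libraries (log2 -0.79, adjusted p = 0.00280, edgeR), as was ZBTB4 (log2 -1.05, adjusted p = 6.31e-04, edgeR). ZBTB4 was lower with ML355 too (log2 -0.73, adjusted p = 0.00541, edgeR).

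Of 8 HUSH partners and MORC genes, ML355 had 3 higher and 1 lower (4 of 8, beside 44.8% of all genes), the latter PPHLN1. ATF7IP2 measured 7.69, 7.36 and 7.96 CPM in L1-FGGY DMSO and 37.3, 27.1 and 28.3 with ML355, a clear step up (log2 2.01 ± 0.17 (SE), adjusted p = 6.11e-08, edgeR). In the NVR-labelled libraries it was 14.6, 10.7 and 11.9 CPM against 7.61, 5.90 and 6.75 in control DMSO (log2 0.87 ± 0.17 (SE), adjusted p = 5.74e-04, edgeR). MORC4 was lower there (log2 -1.01, adjusted p = 7.70e-06, edgeR), and TASOR2 was the other of the 2 called lower (log2 -0.94). With ML355 MORC4 was higher (log2 0.60, adjusted p = 5.49e-04, edgeR).

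H3K9 methylation and heterochromatin genes, 16 tested, had 10 (62.5%) lower and none higher in the NVR-labelled libraries than in control DMSO, beside 15.3% of all genes lower. With ML355 5 were lower and 4 higher, in all 56.2%, beside 44.8% of all genes. CHAF1A and CHAF1B, subunits of the histone chaperone that follows the replication fork, fell in the NVR-labelled libraries (log2 -1.75, adjusted p = 3.32e-08, and -1.81, adjusted p = 1.79e-08, edgeR). CHAF1A also fell with ML355 (log2 -1.13, adjusted p = 8.11e-07, edgeR). CBX1, a heterochromatin protein that binds methylated H3K9, rose with ML355 from 73.2, 71.8 and 73.5 CPM to 146, 132 and 149 CPM (log2 0.97, adjusted p = 4.89e-06, edgeR). It was lower in the NVR-labelled libraries than in control DMSO (log2 -0.66, adjusted p = 3.57e-04, edgeR).

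NuRD is a corepressor with histone deacetylases, and of its 11 tested genes 7 (63.6%) were called lower in the NVR-labelled libraries than in control DMSO, beside 15.3% of all genes. With ML355 4 were lower and 1 higher, in all 45.5%, near the 44.8% of all genes. HDAC1, the deacetylase, measured 229, 207 and 201 CPM in L1-FGGY DMSO and 94.2, 97.7 and 101 with ML355 (log2 -1.12 ± 0.097 (SE), adjusted p = 9.86e-08, edgeR). RBBP4, a histone-binding subunit, fell in both drug groups, at log2 -0.75 with ML355 (adjusted p = 9.58e-06, edgeR) and -1.02 in the NVR-labelled libraries (adjusted p = 1.34e-06, edgeR), where MTA2 was also lower (log2 -0.67, adjusted p = 6.70e-05, edgeR). The 7 genes of the methyl donor cycle, which makes S-adenosylmethionine, had 1 called with ML355, or 14.3% beside 44.8% of all genes (AHCY, higher, log2 0.64, adjusted p = 3.68e-04, edgeR), while MAT2A just missed (log2 -0.83, adjusted p = 0.01004, edgeR). In the NVR-labelled libraries 4 (57.1%, beside 15.3% of all genes) were lower than in control DMSO. MTR, the methionine synthase gene, was among them (log2 -0.71, adjusted p = 0.00283, edgeR). So was MTRR, the gene of its reductase (log2 -0.55, adjusted p = 0.00506, edgeR). MAT2A was lower there too (log2 -0.94, adjusted p = 0.00700, edgeR).

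**Figure D4:**
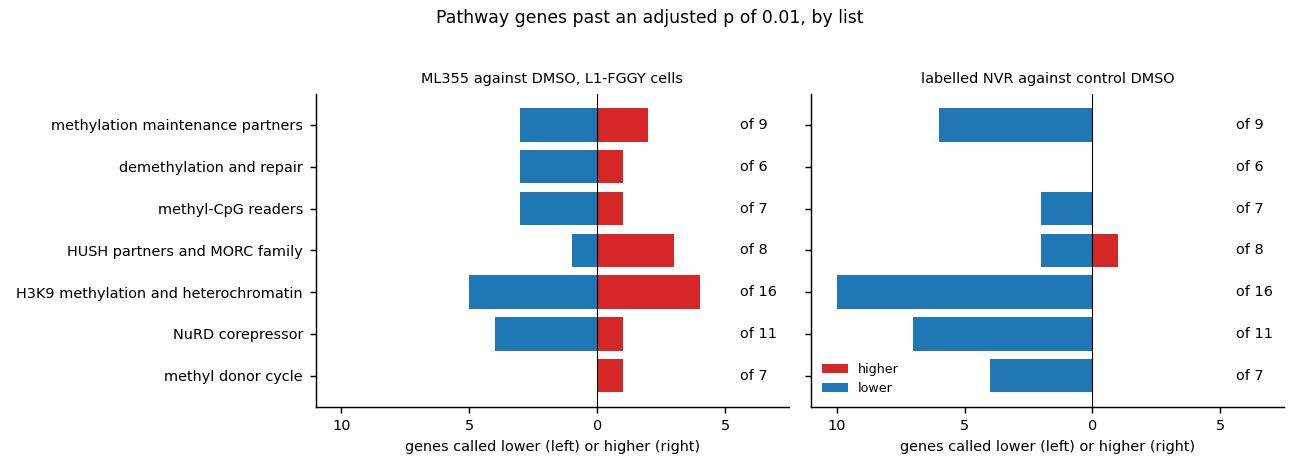
Genes called lower (bars to the left) or higher (bars to the right) at an adjusted p under 0.01 in 7 pathway lists, with the number tested at the right of each panel. The NVR-labelled libraries have only 1 bar to the right, ATF7IP2, while ML355 has bars to both sides in 6 lists.

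Germline genes that DNA methylation keeps silent in body cells were mostly absent, with 4 of 21 passing the filter on low counts. STK31 had no counts in the 6 L1-FGGY libraries and MAGEB2 none in the other 6, so 3 of the 4 could be tested in each drug comparison. Of those 3, none was called higher by edgeR, DESeq2 or limma voom, and at an unadjusted p under 0.05 in edgeR 0 were higher with ML355 and 1 in the NVR-labelled libraries against control DMSO. MAGEB2 measured 29.0, 27.1 and 25.2 CPM in L1-FGGY DMSO and 14.8, 15.0 and 17.3 with ML355 (log2 -0.79 ± 0.15 (SE), adjusted p = 6.23e-04, edgeR). HORMAD1 was lower with ML355 (log2 -0.77, adjusted p = 9.14e-04, edgeR) and in the NVR-labelled libraries against control DMSO (log2 -0.66, adjusted p = 0.00561, edgeR).

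The genes whose pattern was most like that of UHRF1 were sought among 14358 genes over the 12 libraries, by the root mean square difference of log2 CPM after centring each gene. They were NPTX1 (0.368), E2F8 (0.504), ANXA8 (0.508), AOX1 (0.508) and XRCC2 (0.601). NPTX1 measured 62.2, 60.5 and 64.2 CPM in L1-FGGY DMSO, 11.6, 16.1 and 17.8 with ML355, 62.0, 77.9 and 84.7 in control DMSO and 8.16, 10.1 and 7.79 in the NVR-labelled libraries. Its likeness to UHRF1 follows from how it was chosen. Among the members, DNMT3B and MORC2 were the most alike pair (0.343), and UHRF1 and TRIM28 the least (2.06), with UHRF1 nearest to DNMT1 (1.07).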

How the data were processed

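RNA-seq libraries of H520 cells were aligned by the authors with STAR 2.5.3a to hg38 and read counts per gene were made with HTSeq 0.11.2. The deposited values are raw counts per gene, and the annotation release, strand setting and treatment of multi-mapped reads are not given in the sources used here. The labels name a TruSeq kit and the study's methods another maker. Columns headed only DMSO were taken as the control libraries, since the L1-FGGY DMSO columns carry their full titles. Of the identifiers, 57532 matched GENCODE release 44, which gave symbols, coordinates and exon lengths. Promoters are from RefSeq (GRCh38.p14).

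Counts were tested with edgeR 4.0.16 (quasi-likelihood, TMM, filterByExpr, one fit of 4 group means to 12 libraries, R 4.3.3), with Benjamini-Hochberg adjustment over 17849 genes and a threshold of 0.01, the study's own. The fit was tested on simulated data in which few genes changed, evenly up and down. That did not test the scaling or the false calls where 29.8% to 74.4% of genes were called, as here. CPM used TMM-scaled library sizes. Log2 CPM for likeness used a prior count of 2 and genes averaging at least 1 CPM. With 16242082 to 27004768 counts in a library, there were at least 99 counts for each member in each library, and the spread between libraries includes counting error. Alternatives were DESeq2 1.42.0, limma voom 3.58.1, 2 other scalings, 2 other filters, the groups compared alone, a replicate block, a threshold of 0.05 and leaving out each library.

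Members, lists and tests were chosen with earlier results of these data known. Named were all members, FGGY, the 2 genes of each pathway list with the smallest adjusted p with ML355 and the 2 with the smallest in the NVR-labelled libraries against control DMSO, up to 3 called germline genes with the highest level, and 5 genes most like UHRF1. A gene of this rule is not reported here. RRM2, CLSPN, TASOR2, STK31 and the overlapping genes were named after their values were seen. No library pair agreed within sampling noise (chi-square per degree of freedom from 5.94 to 73.7).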

Additional observations from a re-analysis of the deposited data

Results flagged for a closer look

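The effects of the drugs, each against the DMSO group nearest to it, differed for 4 members by an interaction contrast in edgeR (NVR against control DMSO minus ML355 against L1-FGGY DMSO). The log2 differences were -1.11 for DNMT1 (adjusted p = 9.76e-05), -1.59 for TET3 (adjusted p = 5.19e-04), -1.66 for SETDB1 (adjusted p = 1.06e-04) and 1.20 for TASOR (adjusted p = 3.84e-06). DNMT1 and TET3 were lower in the NVR-labelled libraries and did not pass the test with ML355, SETDB1 was higher with ML355 in 3 of 3 libraries and lower in the NVR-labelled libraries in 3 of 3, and TASOR was lower with ML355 in 3 of 3. As the NVR-labelled libraries had FGGY at the control level, this contrast holds the difference between cell lines as well as that between drugs, and they cannot be told apart.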

How the results depend on the processing

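Counts of members and pathway genes called stayed within 1.5 times under all alternatives but 3. At an adjusted p under 0.05, 5 members were called with ML355 and 8 between the DMSO groups, and the share of all genes at that threshold is not given here. A fit of the 2 groups alone called 21 pathway genes in the NVR-labelled libraries against control DMSO, not 32. That fit called 4173 of all 16536 genes, where the main fit called 5316 of 17849. The sign of MORC2 in the NVR-labelled libraries against control DMSO turned with DESeq2 size factors (0.015), with at least 10 counts in every library (0.0049) and with DESeq2 (0.015), and against L1-FGGY DMSO with library size alone (-0.0060). DNMT3B between the DMSO groups turned with library size alone (0.075) and with those groups alone (0.00025). Leaving out a library gave log2 ranges that cross 0 for TET3 with ML355 (-0.26 to 0.036), MORC2 in the NVR-labelled libraries against control DMSO (-0.048 to 0.0025), DNMT3B between the DMSO groups (-0.20 to 0.17) and between the drug groups (-0.018 to 0.26), and for the difference between the drugs' effects of DNMT3A (-0.27 to 0.066), DNMT3B (-0.066 to 0.30) and MORC2 (-0.016 to 0.16). None of these was called, and the cause was not tested. Scaling moved the median of all genes: between the DMSO groups it was -0.11 with TMM, -0.15 with DESeq2 size factors and -0.024 with library size alone, and in the NVR-labelled libraries against L1-FGGY DMSO 0.079, 0.17 and -0.16.

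Replicate numbers gave correlations of deviations between -0.35 and 0.17, so they were not taken to pair libraries. With the replicate block, 3 members were called with ML355, 3 in the NVR-labelled libraries against control DMSO, 7 against L1-FGGY DMSO and 5 between the DMSO groups, and 34 and 31 pathway genes in the first 2 comparisons. Of all 17849 genes, that fit called 7583, 4754, 12874 and 11979 in the same order of comparisons.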
